A study of Mus musculus with 20 samples.

Results

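Isg15 and 4 genes of the pathway that attaches and removes its product (Uba7, Ube2l6, Herc6, and Usp18) were followed in 5 organs of wild-type (WT) and Nsun6-knockout (KO) mice. They were found by gene name in the deposited counts, and all 5 were present among the 55401 genes of the table. They were chosen because the KO and WT levels of Isg15 in these same libraries were already known, so their levels and KO-to-WT differences are given as descriptions with no test. NSUN6 is an enzyme that places 5-methylcytosine on RNA. The KO strain was made by CRISPR/Cas9 deletion of exons 3 and 4 of Nsun6 in fertilized C57BL/6J eggs, and 5 whole organs (heart, kidney, liver, small intestine, and spleen) of 8-week-old female mice were used. Each organ and genotype had 2 libraries, 20 in all, with total counts from 15897446 to 44508197.

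ISG15 is a small protein built like ubiquitin that cells make in response to interferon. It is activated by UBA7 (the E1 enzyme), passed to UBE2L6 (the E2 enzyme), and joined to target proteins by an E3 ligase, which in mice is mainly HERC6. USP18 takes ISG15 off again and also restrains signaling at the type I interferon receptor. All of these genes are known targets of interferon signaling, which acts in part through a DNA element called the interferon-stimulated response element (ISRE).

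Isg15 (ENSMUSG00000035692) occupies bases 156199455 to 156200796 of chromosome 4 (GRCm38, minus strand), with 703 exon bases counted and 2 exons in its principal transcript. The 250 bases before its start in RefSeq (GRCm38.p6, chr4:156200819-156201068, minus strand) are shown because Isg15 was the member that differed most between the genotypes in the liver and spleen. Capitals mark the bases covered by the ISRE-type letters GAAANNGAAA, which were searched on both strands (TTTCNNTTTC is the reverse) with overlapping matches kept.

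Isg15: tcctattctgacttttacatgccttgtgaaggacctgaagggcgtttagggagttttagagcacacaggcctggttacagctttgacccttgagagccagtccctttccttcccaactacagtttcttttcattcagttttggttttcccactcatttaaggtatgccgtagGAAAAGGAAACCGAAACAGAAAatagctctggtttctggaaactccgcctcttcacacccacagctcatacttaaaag

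The capitals hold 3 overlapping matches in a run of 22 bases (chr4:156200875-156200896), from position -78 to position -57 relative to the start. The same letters were found in 3.44% of all 32851 RefSeq promoters, or for 3.99% of the 27025 genes with one, in the same 300-base window, which runs from 250 bases before to 50 bases after the start. They were found in the promoters of 20 of the 43 interferon-stimulated genes with a promoter entry (46.5%), in a list described below. In a separate list of genes typical of interferon gamma, 8 of 14 had them (57.1%). None of the 23 genes for ubiquitin, other ubiquitin-like modifiers, and their enzymes had them. The windows of Uba7, Ube2l6, and Herc6 had 0 matches, which says only that these letters are not in those windows. Usp18 was not matched to an entry, so 4 of the 5 genes were searched.

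The other genes were spread over several chromosomes. Uba7 (ENSMUSG00000032596) lies on chromosome 9 from 107975505 to 107984060 on the plus strand, with 24 exons in its principal transcript. Ube2l6 (ENSMUSG00000027078) lies on chromosome 2 from 84798828 to 84810335 on the plus strand, with 4 exons. Herc6 (ENSMUSG00000029798) and Usp18 (ENSMUSG00000030107) are both on the plus strand of chromosome 6, from 57581000 to 57664632 with 23 exons and from 121245906 to 121270917 with 11 exons. A part of the counted exons was shared with a predicted gene for 3 members, namely 13.7% of Herc6 with Gm45193, 4.44% of Usp18 with Gm44148 on the other strand, and 3.48% of Uba7 with Gm20661. How reads on these bases were divided was not tested.

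The libraries were first compared with their labels. The summed level of 8 hepatocyte markers was between 120019 and 241581 CPM (counts scaled by library size, after TMM normalization) in the liver, that of 6 cardiomyocyte markers was between 37088.5 and 49787 CPM in the heart, and that of 6 kidney tubule markers was between 7175 and 13251 CPM in the kidney. Enterocyte markers summed to between 9269 and 25010 CPM in the small intestine, and lymphocyte markers to between 3162 and 4057 CPM in the spleen. Each organ therefore carried its own markers. Nsun6 was counted over all of its exons, so its counts do not check the deletion. Its KO level was 0.712 of the WT mean in the liver, 0.628 in the kidney, and 0.829 in the heart, without overlap of the genotypes. It was 0.902 of the WT mean in the small intestine and 1.06 of it in the spleen, with overlap. Of all genes tested, 16.1% in the liver, 11.2% in the kidney, and 9.66% in the heart were lower in KO without overlap.

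Some libraries stood apart. In the small intestine, the 3 ileum markers (Fabp6, Slc10a2, and Fgf15) summed to 9279 CPM in WT replicate 1 and 9717 CPM in KO replicate 1, but to 4.76 and 8.42 CPM in replicates 2 of WT and KO. The 5 markers of the proximal intestine had the opposite pattern, at 301 and 829 CPM in replicates 1 and 6039 and 7338 CPM in replicates 2 of WT and KO. The replicate numbers therefore went with different segments of the intestine. Another difference was that the small intestine KO replicate 1 had the lowest sum of 10 lymphocyte markers, 11.8 CPM against 343, 134, and 146 CPM in WT replicates 1 and 2 and KO replicate 2, with Cd79a at 0. It had the highest sum of cardiomyocyte markers too, 243 CPM with Actc1 most abundant, against 9.87 to 28.6 CPM in the other 3. In the spleen, WT replicate 2 held 4993 CPM of hepatocyte markers, led by Alb at 4057 CPM, whereas WT replicate 1 held 10.1 CPM and the KO replicates 177 and 260 CPM. Kidney tubule markers summed to 24.8 CPM in spleen KO replicate 1, against 3.87 and 3.31 CPM in WT and 5.32 CPM in KO replicate 2. In the liver, WT replicate 1 had the lowest hepatocyte sum, 120019 CPM against 241581, 216045, and 203897 CPM in WT replicate 2 and KO replicates 1 and 2.

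The levels of the 5 genes were first compared between organs in WT mice, in TPM, a unit in which counts are divided by exon length and scaled to the same total in each library. Isg15 had a level of 281 ± 7.31 TPM in the spleen (mean ± SD, n = 2 here and below), 188 ± 56.0 TPM in the small intestine, 68.8 ± 15.1 TPM in the liver, 40.7 ± 15.8 TPM in the heart, and 35.3 ± 10.5 TPM in the kidney. All neighbors in this order were separate except the heart and kidney, whose libraries overlapped. Isg15 transcripts were thus 7.96-fold more abundant in the spleen than in the kidney, and ranked 408 among the 27718 genes with a level above 0 in the WT spleen.

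Ube2l6 had the widest range of levels, from 385 ± 19.3 TPM in the spleen to 19.7 ± 5.92 TPM in the kidney, a 19.5-fold difference. Between them, the small intestine was at 128 ± 61.6 TPM and the liver at 84.7 ± 3.15 TPM, with overlapping libraries, and the heart was at 49.0 ± 2.27 TPM. Uba7 was at 52.6 ± 8.66 TPM in the spleen and 45.4 ± 6.64 TPM in the small intestine, which overlapped. Its levels in the heart, liver, and kidney were 11.5 ± 4.33, 7.10 ± 2.79, and 5.85 ± 6.61 TPM, and neighbors among these also overlapped. The WT kidney libraries were far apart for Uba7, at 10.5 and 1.17 TPM.

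Herc6 had the lowest levels of the pathway in the spleen, 14.5 ± 1.49 TPM, which overlapped with the 11.6 ± 2.68 TPM of the small intestine. It followed at 6.43 ± 2.39 TPM in the liver, 3.81 ± 0.787 TPM in the kidney, and 2.61 ± 0.0737 TPM in the heart, each separate from the next. Usp18 was at 30.5 ± 4.46 TPM in the spleen, 19.999 ± 12.9 TPM in the small intestine, and 17.3 ± 1.08 TPM in the liver, and neighbors among these overlapped. It was at 5.71 ± 1.68 TPM in the heart and 3.62 ± 0.308 TPM in the kidney. The spleen was thus first in the order for each of the 5 genes.

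**Figure D1:**
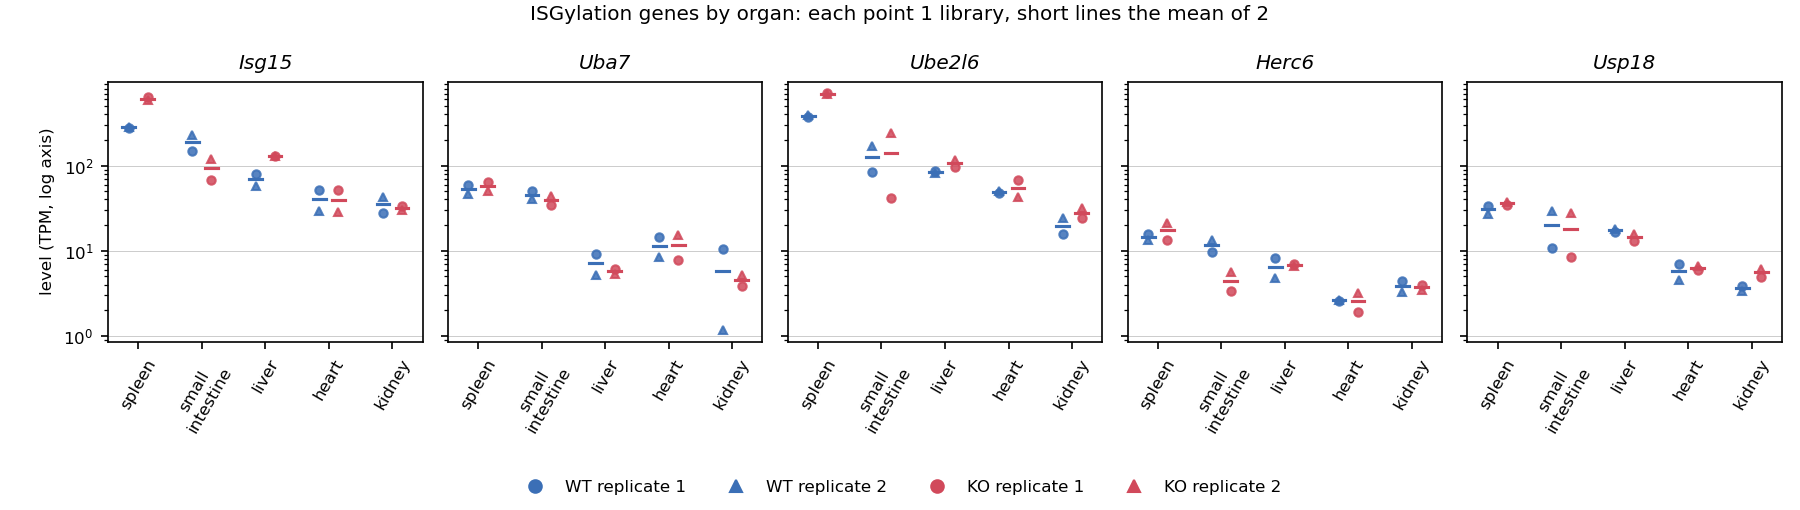
Level of each ISGylation gene (TPM, log axis) in each organ. Each point is 1 library (circles replicate 1, triangles replicate 2, blue WT, red KO) and short lines are means of 2 libraries; Isg15 in the WT spleen averages 281 TPM and in the WT kidney 35.3 TPM.

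The levels of the genes per length differed by their role in the WT spleen. There, the Isg15 level was 5.34-fold that of Uba7, 9.21-fold that of Usp18, and 19.4-fold that of Herc6, but 0.730 of that of Ube2l6. Those ratios depend on which length is used, because the merged exons of Uba7 cover 6692 bases and its principal transcript 3195. With the principal transcript of each gene, the same ratios were 2.37, 5.44, 9.27, and 0.531. In either scale, the modifier and its E2 were above the E1, the E3, and the protease in the WT spleen. By merged exons, Isg15 was 1.47-fold Ube2l6 in the WT small intestine and 1.79-fold in the kidney. It was 0.812 of Ube2l6 in the WT liver and 0.831 in the heart.

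The genes for ubiquitin itself gave a scale for these levels. Ubb, one of the ubiquitin genes, was at a level of 1098 TPM in the WT spleen, and Nedd8, a related modifier, at 241 TPM, close to the 281 TPM of Isg15. Uba1, the E1 of ubiquitin, was at 83.1 TPM and Ube2l3, a ubiquitin E2, at 40.7 TPM. In the WT kidney, Nedd8 was at 279 TPM whereas Isg15 was at 35.3 TPM.

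KO and WT were then compared in each organ, in CPM. In the spleen, Isg15 was at 70.2 and 77.5 CPM in the WT libraries and at 183 and 174 CPM in the KO libraries. Both KO libraries were therefore above both WT libraries, and the KO mean was 2.42-fold the WT mean (log2 fold change 1.27, standard error 0.15). Ube2l6 followed it closely, at 268 and 306 CPM in WT and 578 and 580 CPM in KO, with no overlap (log2 fold change 1.01, standard error 0.15).

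The E1, the E3, and the protease were less far apart in the spleen. Usp18 was at 34.0 and 29.4 CPM in WT and 39.8 and 43.6 CPM in KO, a difference with no overlap (log2 fold change 0.40, standard error 0.17). Uba7 was at 142 and 120 CPM in WT and 178 and 141 CPM in KO. Herc6 was at 52.2 and 48.0 CPM in WT and 51.6 and 83.4 CPM in KO. The genotypes overlapped for both, and only KO replicate 2 of Herc6 lay far above the WT libraries. In all, 3 of the 5 genes were higher in KO without overlap, beside 17% of the 18834 genes tested in the spleen, and nothing is read from this count since the genes were chosen on this contrast.

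In the liver, Isg15 was at 18.2 and 17.9 CPM in the WT libraries and at 39.1 and 39.1 CPM in the KO libraries. The replicates of a genotype lay very close together, and the KO mean was 2.16-fold the WT mean (log2 fold change 1.11, standard error 0.18). Ube2l6 was at 56.6 and 71.9 CPM in WT and 83.8 and 100.002 CPM in KO (log2 fold change 0.52, standard error 0.20). Herc6 was at 24.6 and 19.3 CPM in WT and 27.9 and 26.04 CPM in KO. Both were higher in KO without overlap, whereas Uba7 (19.8 and 14.995 CPM in WT, 17.6 and 15.3 CPM in KO) and Usp18 (15.1 and 22.1 CPM in WT, 15.8 and 18.6 CPM in KO) overlapped. The 3 genes without overlap compare with 17.2% of the 15729 genes tested in the liver.

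In the small intestine the direction was the other way. Isg15 was at 36.8 and 72.1 CPM in WT replicates 1 and 2 and at 15.6 and 34.8 CPM in KO replicates 1 and 2, so that both KO libraries were below both WT libraries, the nearest by a narrow margin. The KO mean was 0.463 of the WT mean (log2 fold change -1.11, standard error 0.57, and -1.84 to -0.55 with 1 library left out). Herc6 was at 31.9 and 56.7 CPM in WT and 10.1 and 21.6 CPM in KO, also without overlap (log2 fold change -1.48, standard error 0.54, and -2.17 to -1.02 with 1 library left out). In both ranges, leaving out 1 library also left the segments of intestine unequal between WT and KO. These 2 genes compare with 11.6% of the 17680 genes tested that were lower in KO without overlap.

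For Ube2l6 and Usp18 in the small intestine, the replicate numbers differed more than the genotype means. Replicate 2 over replicate 1 was 2.60 in WT and 7.31 in KO for Ube2l6, and 3.43 and 4.23 for Usp18. The KO mean was 1.05 of the WT mean for Ube2l6 and 0.846 for Usp18. Ube2l6 was at 59.4 and 154 CPM in WT replicates 1 and 2 and at 27.1 and 199 CPM in KO replicates 1 and 2. Usp18 was at 10.7 and 36.7 CPM in WT and 7.66 and 32.4 CPM in KO. Replicate 2 was above replicate 1 in both genotypes for Isg15, Ube2l6, Herc6, and Usp18, and the segment of intestine differed between the numbers. Compared within a number, the KO-to-WT ratio of Isg15 was 0.424 in replicates 1 and 0.483 in replicates 2, while that of Ube2l6 was 0.457 and 1.285. Uba7 was at 118 and 123 CPM in WT and 75.8 and 123 CPM in KO.

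In the kidney, Isg15 was at 6.05 and 15.3 CPM in WT and 9.23 and 8.33 CPM in KO, and the KO libraries lay between the WT libraries. Ube2l6 was at 9.59 and 24.3 CPM in WT and 18.5 and 24.5 CPM in KO. Uba7 was high in WT replicate 1 and low in WT replicate 2, at 21.8 and 3.997 CPM, with 9.86 and 13.6 CPM in KO. The WT kidney libraries thus differed more than the genotypes. Herc6 was at 12.5 and 15.4 CPM in WT and 14.4 and 12.4 CPM in KO. Usp18 was the single gene without overlap, at 3.31 and 4.83 CPM in WT and 5.36 and 6.66 CPM in KO, beside 10.3% of the 17550 genes tested.

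In the heart, none of the 5 genes was without overlap, beside 7.56% of the 16632 genes tested that were higher and 9.66% that were lower in KO. Isg15 was at 15.5 and 6.94 CPM in WT replicates 1 and 2 and at 16.7 and 6.21 CPM in KO replicates 1 and 2 (log2 fold change 0.02, standard error 0.57). Replicate 1 was the higher one in both genotypes. The WT hearts had 265 and 268 raw counts of it and the KO hearts 240 and 282, at total counts of 17959542 and 36090637 (WT) and 15897446 and 41763236 (KO). Ube2l6 was at 40.3 and 33.8 CPM in WT and 62.8 and 26.4 CPM in KO. Uba7 was at 41.4 and 18.8 CPM in WT and 24.2 and 32.1 CPM in KO, while Herc6 ranged from 8.22 to 10.1 CPM and Usp18 from 4.22 to 8.21 CPM.

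**Figure D2:**
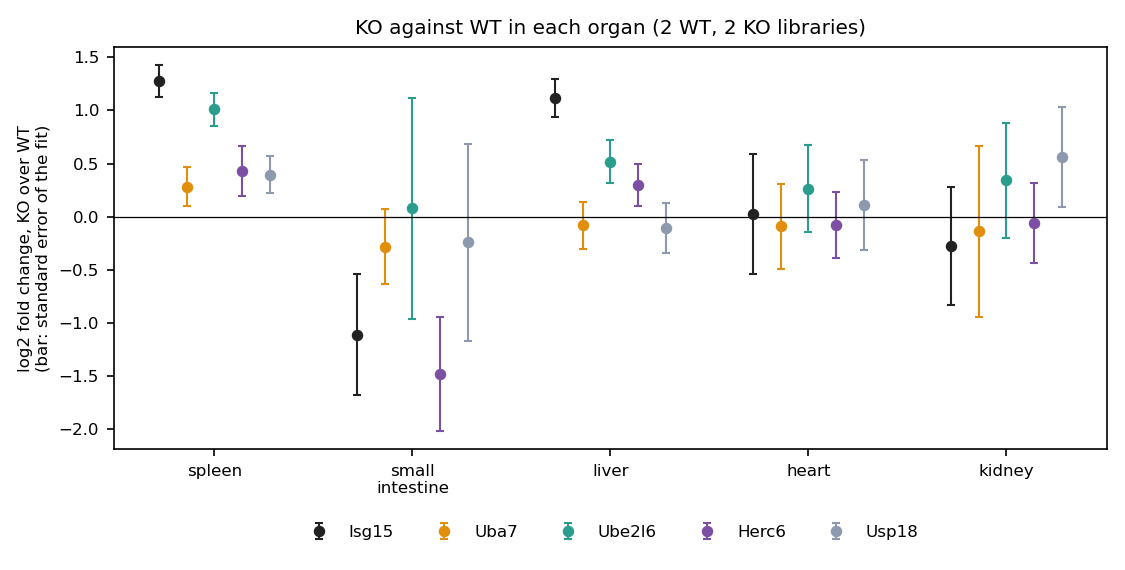
Log2 fold change of KO over WT (points) with the standard error derived from the fit (bars) for the 5 genes in each organ, from 2 WT and 2 KO libraries. Isg15 is at 1.27 in the spleen and 1.11 in the liver, and at -1.11 in the small intestine with a wider bar.

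The 5 genes were then followed over all 20 libraries, after the mean of each organ was subtracted from log2 CPM. These correlations share libraries, depth, and organ means and are given as descriptions. Ube2l6 and Usp18 were the most alike pair (Pearson r = 0.867 over 20 libraries), and Isg15 was more like Ube2l6 (r = 0.778) than Herc6 (r = 0.681) or Usp18 (r = 0.598). Uba7 was less like the other 4 genes, with r between -0.066 and 0.171. In WT kidney replicates 1 and 2, Uba7 deviated from the organ mean by 1.02 and -1.36, where Isg15 deviated by -0.63 and 0.74. How far these kidney libraries set the r of Uba7 was not tested. The small intestine libraries differed by segment. Over the 16 libraries of the other organs, r was between -0.369 and 0.010 for Uba7 and the other genes, 0.700 for Ube2l6 and Usp18, 0.852 for Isg15 and Ube2l6, and 0.1905 for Herc6 and Usp18.

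**Figure D3:**
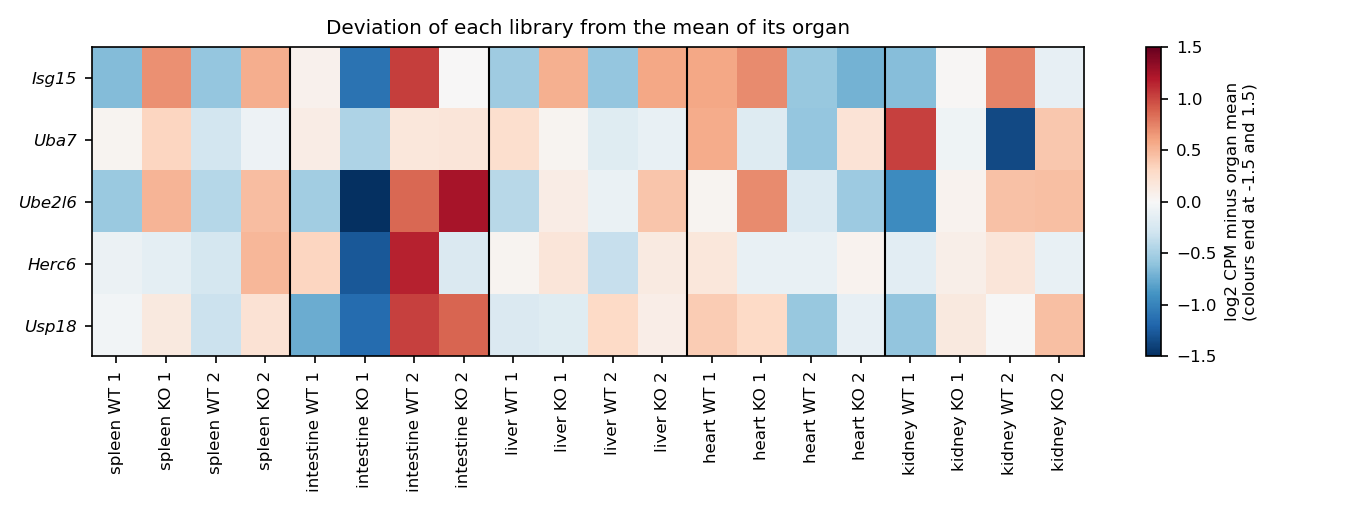
Log2 CPM of each gene minus the mean of its organ, for 20 libraries in organ blocks (columns ordered WT and KO of replicate 1, then of replicate 2). Red is above and blue below the mean of the organ. Isg15 is red in KO and blue in WT of the spleen and liver. The Uba7 row is the least like the others (r between -0.066 and 0.171), with WT kidney libraries far apart and opposite to Isg15.

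Among the 11211 genes with enough counts, 8 were more like Isg15 than the rest in this measure over the 20 libraries. They were Psma1, a proteasome subunit (r = 0.860), Morf4l2 (0.858), Isg20, an interferon-induced exonuclease (0.849), Ap1s1, a clathrin adaptor subunit (0.843), Ssr4 of the translocon-associated complex (0.838), the predicted gene Gm7666 (0.836), Plaat3 (0.833), and Cdc123 (0.833). Isg20 in the spleen was at 57.2 and 62.2 CPM in WT and 126 and 180 CPM in KO. Ube2l6 ranked 45 and Herc6 ranked 296 by the same measure, and Uba7 ranked 6002. Over the 10 WT libraries without subtraction of organ means, the order was led by Psmb8 (r = 0.9545), a subunit of the immunoproteasome, and by H2-K1 (r = 0.946) and H2-D1 (r = 0.941), which present antigens as class I molecules, with Kin (r = 0.941) and Usp38 (r = 0.939) among the first 5. Herc6 ranked 17 there (r = 0.918) and Uba7 ranked 538 (r = 0.708).

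To see whether the difference was shared by other interferon targets, 56 interferon-stimulated genes other than the 5 were examined with edgeR. A gene was called when its Benjamini-Hochberg adjusted p over all genes tested was under 0.1 and its fold change over 2. In the spleen, 43 of the 56 had a higher and 13 a lower KO level, and the median log2 fold change was 0.16 against 0.0072 for all genes, of which 51.3% were higher and 48.7% lower. Only Rsad2, which encodes the antiviral protein viperin, was called, at 169 and 159 CPM in WT and 413 and 429 CPM in KO (log2 fold change 1.36, standard error 0.15, adjusted p = 0.0656). Among all genes, edgeR called 0.218% as higher and 0.00531% as lower, and 22 genes of the list were higher without overlap and none lower, beside 17% and 14.4% of all genes. The call was lost in a fit of all 20 libraries together (log2 fold change 1.32, adjusted p = 1) and without KO replicate 2 (1.34, adjusted p = 0.117), and edgeR called 0 of all genes in both of these fits.

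Other genes of the list in the spleen missed the threshold. Oas3, an oligoadenylate synthetase, was at 27.6 and 25.6 CPM in WT and 54.5 and 41.0 CPM in KO (edgeR adjusted p = 0.275). Its DESeq2 adjusted p was 0.0302, but its KO mean was 1.79-fold the WT mean, under the threshold of 2. Cmpk2, a mitochondrial nucleotide kinase, was at 35.6 and 48.9 CPM in WT and 60.03 and 62.5 CPM in KO. In all, 6 genes of the list were higher at an unadjusted p under 0.05, beside 4.32% of all genes, and none was lower, beside 0.828%. DESeq2 called Rsad2 as well, beside 1.30% of all genes called higher and 0.0518% lower. Without WT replicate 2, the library with liver transcripts, 38 of the list were higher and 18 lower (median 0.12), and without WT replicate 1, 47 were higher and 9 lower (median 0.26). Rsad2 was called in both fits.

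In the liver, 41 of the 56 genes had a higher and 15 a lower KO level, and the median log2 fold change was 0.20 against 0.0048 for all genes (50.6% higher and 49.4% lower). By edgeR 0 were called, beside 0.0509% of all genes called higher and 0% called lower, and DESeq2 also called none, beside 0.217% and 0.132%. At an unadjusted p under 0.05, 6 were higher (2.74% of all genes) and none lower (1.96%). Zbp1, a sensor of Z-form nucleic acid, was at 15.7 and 15.2 CPM in WT and 30.9 and 24.1 CPM in KO (edgeR adjusted p = 0.775). Bst2, which tethers budding virus particles, was at 117 and 112 CPM in WT and 178 and 179 CPM in KO (edgeR adjusted p = 0.947). Of the list, 23 genes were higher without overlap and 1 was lower, beside 17.2% and 16.1% of all genes. The median was 0.09 without KO replicate 1 (33 higher and 23 lower) and 0.11 without WT replicate 2 (34 and 22).

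In the small intestine, 9 of the 56 genes had a higher and 47 a lower KO level, and the median log2 fold change was -0.49 against 0.0037 for all genes (50.4% higher and 49.6% lower). By edgeR 0 were called, as for all genes (0% in each direction), and 4 were lower at an unadjusted p under 0.05, beside 0.617% of all genes lower and 1.77% higher. DESeq2 called Ifit1bl1 as lower, beside 0.236% of all genes called higher and 0.0982% lower. This gene was at 529 and 190 CPM in WT and 34.7 and 38.8 CPM in KO (log2 fold change -3.29, edgeR adjusted p = 0.9999, DESeq2 adjusted p = 0.00335). Ifit1, which recognizes foreign RNA caps, was at 120 and 160 CPM in WT and 35.2 and 63.6 CPM in KO, and Ifi44 at 8.38 and 11.5 CPM in WT and 1.88 and 3.53 CPM in KO. Without overlap, 24 genes of the list were lower and 1 was higher, beside 11.6% and 13.6% of all genes. Without KO replicate 1, 13 were higher and 43 lower (median -0.39), and without KO replicate 2, 9 were higher and 47 lower (median -0.76). These fits also left the segments of intestine unequal between WT and KO.

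The directions of the list in the heart and kidney each turned when 1 library was left out. In the heart, 40 of 55 genes tested were higher in KO and 15 lower (median log2 fold change 0.13 against -0.0090, with 48.2% of all genes higher and 51.8% lower), and in the kidney 24 of 55 were higher and 31 lower (median -0.04 against -0.0258, with 47.0% and 53.0%). EdgeR called 0 genes of the list in either organ, as for all genes, and none passed an unadjusted p under 0.05, beside 0.186% higher and 0.517% lower in the heart and 0.405% and 0.234% in the kidney. DESeq2 also called none of the list, beside 0.0107% of all genes called lower in the heart. Without overlap, 4 genes were higher and 4 lower in the kidney, beside 10.3% and 11.2% of all genes, and 7 were higher and 1 lower in the heart, beside 7.56% and 9.66%. Without WT replicate 1 of the kidney, edgeR called 6 genes of the list as higher and 2 as lower, but also 14.3% of all genes as higher and 1.81% as lower. Without WT replicate 2 it called 3 as higher, beside 1.37% of all genes, and 37 of the list were higher and 19 lower (median 0.18). The heart had 26 higher and 30 lower without WT replicate 2. Dtx3l in the heart (13.9 and 6.56 CPM in WT, 17.7 and 17.5 CPM in KO) and Oasl1 in the kidney (1.40 and 1.53 CPM in WT, 3.04 and 3.03 CPM in KO) lay among the higher genes.

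A further 20 genes typical of interferon gamma were listed separately. In the small intestine all 20 had a lower KO level (median log2 fold change -1.20). The lymphocyte markers were lower there too, with a sum of 11.8 CPM in KO replicate 1 against 343, 134, and 146 CPM in the other 3 libraries and 9 of 9 genes tested lower, and their part in either interferon list was not tested. EdgeR called none (0% of all genes), 6 were lower at an unadjusted p under 0.05 (0.617% of all genes), and DESeq2 called Gbp6 and Nlrc5 as lower (0.0982% of all genes). Nlrc5, an activator of class I genes, was at 65.6 and 41.0 CPM in WT and 4.24 and 13.1 CPM in KO, and Gbp6, a guanylate-binding protein, at 20.9 and 7.53 CPM in WT and 1.504 and 2.61 CPM in KO. Without KO replicate 1, 18 were lower and 2 higher (median -0.87), and without KO replicate 2 all 20 were lower (median -2.52). The segments of intestine were unequal between WT and KO in these fits. The liver had 13 of them higher and 7 lower, the spleen 12 and 8, and the heart and the kidney 4 and 16 each. EdgeR called none in these organs, beside at most 0.218% of all genes called higher and 0.00531% lower. DESeq2 called none there either, beside at most 1.30% of all genes called higher and 0.132% lower. Shares of all genes that passed an unadjusted p under 0.05 were 2.74% higher and 1.96% lower in the liver. They were 4.32% and 0.828% in the spleen, 0.186% and 0.517% in the heart, and 0.405% and 0.234% in the kidney. A single gene of the list passed this threshold. It was Igtp in the liver (55.6 and 39.7 CPM in WT, 75.8 and 96.0 CPM in KO). Several of these counts turned when 1 library was left out. Without WT replicate 1, the heart had 14 higher and 6 lower (median 0.34, against -0.25 with all 4 libraries). Without WT replicate 2 or without KO replicate 2, the spleen had 5 higher and 15 lower, and the liver without WT replicate 2 had 6 higher and 14 lower. In 4 of the fits without a library edgeR called 1 gene each, namely Igtp as higher without WT replicate 1 (0.807% of all genes) and Gbp4 as lower without WT replicate 2 (0.246%) in the liver, and Nlrc5 and Gbp3 as higher without WT replicate 1 (14.3%) and WT replicate 2 (1.37%) in the kidney.

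**Figure D4:**
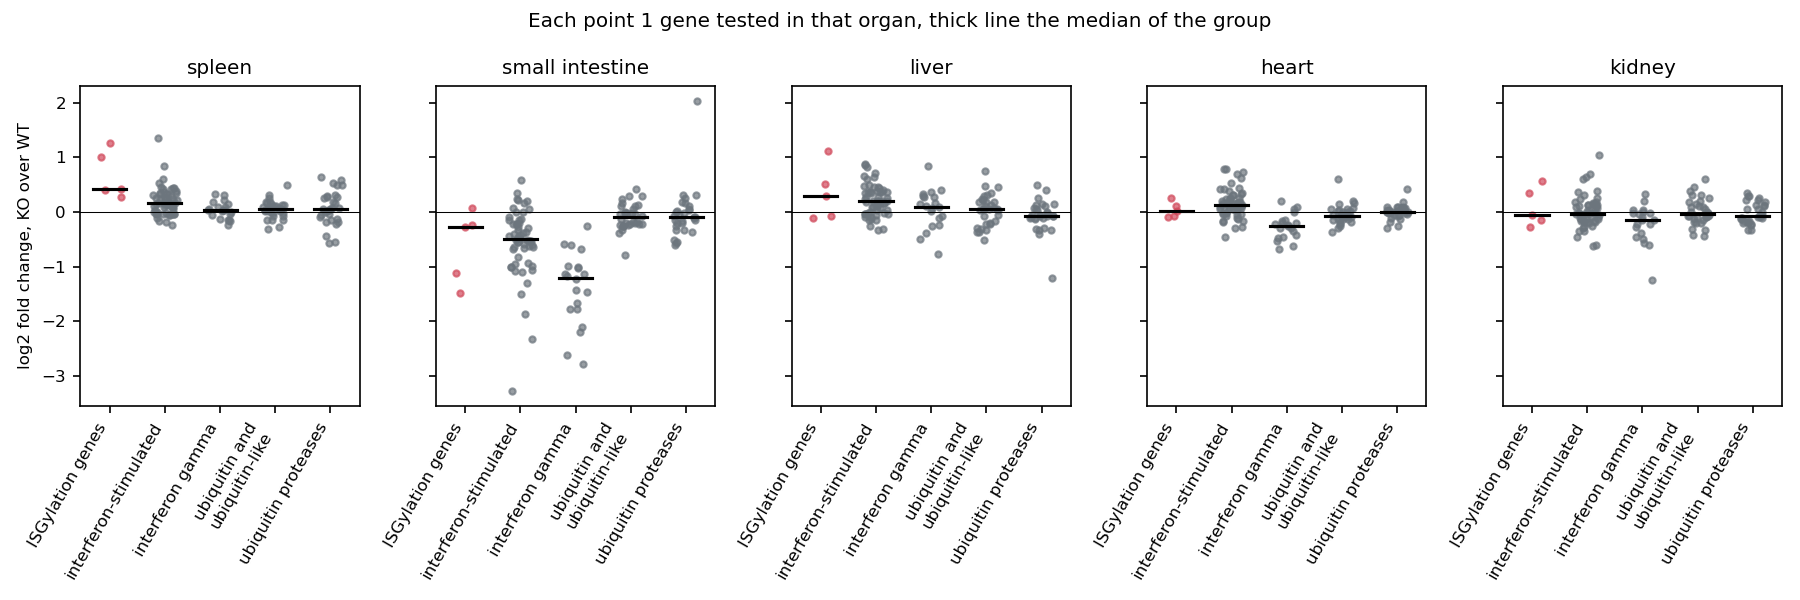
Log2 fold change of KO over WT for each gene tested in each organ (points) and the median of the group (thick line), for the 5 ISGylation genes, the interferon-stimulated and interferon gamma lists, and the ubiquitin lists. The interferon gamma median is -1.20 in the small intestine, where all 20 genes lie below 0.

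The factors and receptors upstream of Isg15 were read in the same way. Irf7, a regulator of type I interferon genes, was at 66.4 and 72.3 CPM in the WT spleen and 106 and 81.4 CPM in the KO spleen, and at 39.5 and 45.0 CPM in the WT liver and 62.4 and 56.7 CPM in the KO liver. In the small intestine it was at 101 and 141 CPM in WT and 93.4 and 89.9 CPM in KO. Its genotypes did not overlap in these organs, but no adjusted p was under 0.1 (0.941 in the spleen, 0.983 in the liver, and 0.9999 in the small intestine, edgeR). Of all genes, 17% in the spleen and 17.2% in the liver were higher in KO without overlap, and 11.6% in the small intestine were lower. Stat2, Irf9, Ifnar1, and Ifnar2 had log2 fold changes between -0.04 and 0.09 in the spleen.

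Transcripts of the interferons were scarce. Ifna1, Ifna2, Ifna4, Ifne, Ifnl2, and Ifnl3 had 0 counts in each of the 20 libraries. Ifnb1 had 2 counts in KO replicate 1 of the spleen and 0 elsewhere, and Ifnk had at most 4. Ifng, which T cells and natural killer cells make, had 115 and 38 counts in the WT spleens and 64 and 45 in the KO spleens. Of the small intestine libraries, WT held 29 and 15 counts of it and KO held 0 and 6. Over 27 genes for interferons, their receptors, kinases, and sensors, edgeR and DESeq2 called 0 in each organ and none passed an unadjusted p under 0.05, beside shares of all genes that were at most 0.218% (edgeR), 1.30% (DESeq2), and 4.32% (unadjusted p) in either direction, and 12 of 19 genes tested were higher in the KO spleen, 11 of 16 in KO livers, 9 of 18 in KO intestines, 8 of 17 in KO hearts, and 10 of 17 in KO kidneys.

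Genes for ubiquitin, other modifiers, and their enzymes were read next. Of 32 genes, edgeR and DESeq2 called 0 in each organ with all 4 libraries, beside at most 0.218% and 1.30% of all genes, and the spleen median of the log2 fold change was 0.06, that of the liver 0.05, and that of the small intestine -0.10 (kidney -0.03 and heart -0.07). At an unadjusted p under 0.05, 1 gene was higher in the liver (2.74% of all genes) and 1 in the spleen (4.32%). The liver gene was Ubb, at 233 and 255 CPM in WT and 343 and 479 CPM in KO (edgeR adjusted p = 0.947). Uba1 and Ube2l3, the ubiquitin counterparts of Uba7 and Ube2l6, had log2 fold changes of -0.08 and 0.05 in the spleen, and Nedd8 had 0.03.

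The 30 ubiquitin proteases other than Usp18 were likewise not called by edgeR with all 4 libraries of an organ and the filter on low counts. DESeq2 called Usp2 as lower in the liver (0.132% of all genes, edgeR adjusted p = 0.871). It was at 19.2 and 39.6 CPM in WT and 12.3 and 12.96 CPM in KO. Without the filter, edgeR called Usp2 as lower too, beside 0.211% of all genes called lower. Without WT replicate 1 of the kidney, edgeR called Usp11, Usp19, and Usp21 as higher, in the fit that called 14.3% of all genes. In the spleen, 3 of them were higher and 1 lower at an unadjusted p under 0.05 (4.32% and 0.828% of all genes), and the highest log2 fold change was that of Usp15, at 172 and 197 CPM in WT and 272 and 304 CPM in KO (edgeR adjusted p = 0.308). Of 7 genes for proteins known to bind ISG15 or USP18, among them Itgal and Itgb2 of the receptor for secreted ISG15, edgeR and DESeq2 called 0 and none passed an unadjusted p under 0.05, beside the same shares of all genes, and the liver had 6 of them higher, the spleen 2, the small intestine 1, and the heart and kidney 4 each. Itgal in the spleen was at 146 and 132 CPM in WT and 123 and 140 CPM in KO.

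Markers of other cells were measured beside these differences. In whole organs, fewer cells of a type and less RNA per cell cannot be told apart. In the spleen, 9 of 10 erythroid markers were in the table (Ahsp was not matched by name), and they summed to 9070 and 12939.5 CPM in WT and 21749 and 20888 CPM in KO, with Hba-a1 most abundant and none at 0. All 9 were higher in KO without overlap (17% of all genes), the median of their log2 fold changes was 1.34, and edgeR called 4 (0.218% of all genes), among them Epb42 (adjusted p = 0.0656), Slc4a1, and Alas2, which are genes of red blood cells and their precursors. Epb42, for example, was at 58.5 and 69.5 CPM in WT and 185 and 223 CPM in KO. DESeq2 called 8 (1.30% of all genes), and 7 were called without WT replicate 2 (1.32% of all genes). A fit of all 20 libraries and the fit without KO replicate 2 called 0, as of all genes. The median was 1.66, 1.30, and 1.54 in these fits. The part of the erythroid markers in the Isg15 and Rsad2 levels was not tested.

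Markers of other blood cells in the spleen were summed in the same way. The lymphocyte markers, 10 genes led by Cd79b in 3 of the libraries, summed to 4057 and 3601 CPM in WT and 3445 and 3162 CPM in KO. The macrophage markers, led by Lyz2, summed to 3277 and 2881 CPM in WT and 3307 and 3468 CPM in KO. Plasmacytoid dendritic cell markers, led by Ly6d, summed to 898 and 852 CPM in WT and 782 and 831 CPM in KO. Neutrophil markers, led by S100a9, summed to 418 and 928 CPM in WT and 264 and 645 CPM in KO. The genotypes did not overlap in the lymphocyte and plasmacytoid dendritic cell sums, lower in KO, and in the macrophage sum, higher in KO, whereas the neutrophil sums overlapped. Among all single genes tested, 17% were higher and 14.4% lower in KO without overlap. Counted by gene, 5 of 10 lymphocyte, 6 of 8 plasmacytoid dendritic cell, 8 of 10 macrophage, and 0 of 8 neutrophil markers had a higher KO level, with medians of -0.03, 0.10, 0.12, and -0.65 on the log2 scale. Ly6d, which made up most of the plasmacytoid dendritic cell sum, was at 532 and 536 CPM in WT and 473 and 476 CPM in KO. It was lower in KO, whereas 6 of the 8 genes of its list were higher. None of the genes of these lists was at 0. EdgeR called 0 of them, beside 0.218% of all genes called higher and 0.00531% lower. DESeq2 also called 0, beside 1.30% and 0.0518%. At an unadjusted p under 0.05, 1 neutrophil gene was lower (0.828% of all genes). The part of these markers in the Isg15 level was not tested.

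**Figure D5:**
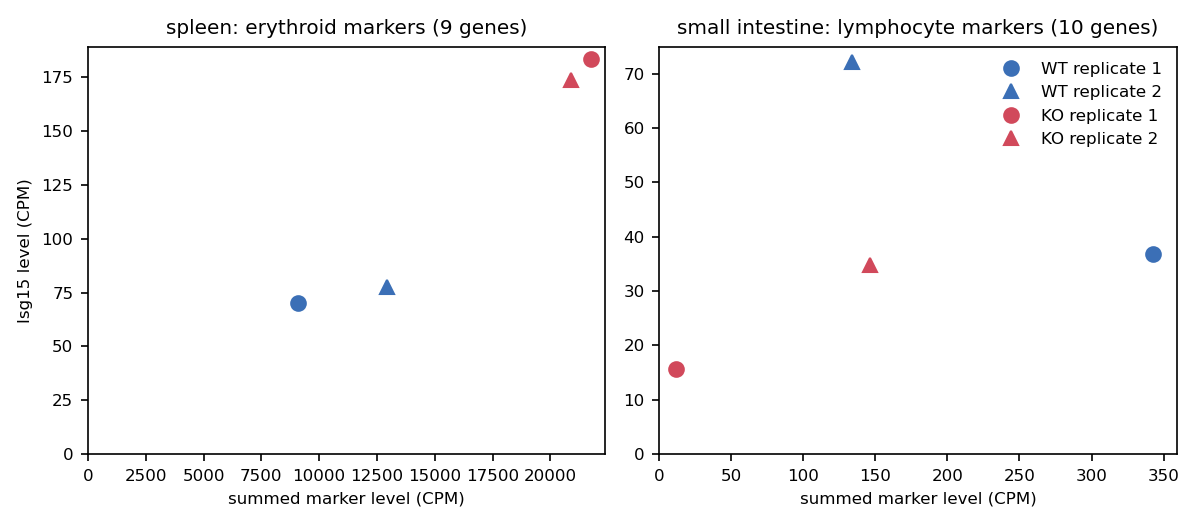
Isg15 level (CPM) against the summed level of markers (CPM) in each library, for 9 erythroid markers in the spleen (left) and 10 lymphocyte markers in the small intestine (right). The KO spleen libraries are at 21749 and 20888 CPM of erythroid markers and the WT at 9070 and 12939.5 CPM, and the small intestine KO replicate 1 is at 11.8 CPM of lymphocyte markers.

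In the small intestine, the lymphocyte markers moved with Isg15 in replicate 1, at 343 CPM in WT and 11.8 CPM in KO. All but Cd79a were above 0 in that KO library. All 9 genes tested had a lower KO level, beside 49.6% of all genes. EdgeR called 0 of them (0% of all genes lower) and DESeq2 called 0 (0.0982%). At an unadjusted p under 0.05, 0 passed, beside 0.617% of all genes lower. In replicate 2 the lymphocyte markers were at 134 and 146 CPM in WT and KO, while Isg15 was at 72.1 and 34.8 CPM. Cd8a, the most abundant of them in replicate 2, was at 87.2 CPM in WT and 64.1 CPM in KO, and the part of lymphocytes in the Isg15 level was not tested. Macrophage markers summed to 284 and 436 CPM in WT and 183 and 467 CPM in KO, with Marco at 0 in 3 libraries, and enterocyte markers, led by Fabp2, to 9269 and 24124 CPM in WT and 14904 and 25010 CPM in KO. In the liver, the hepatocyte markers summed to 120019 and 241581 CPM in WT and 216045 and 203897 CPM in KO, lymphocyte markers to 11.02 and 7.03 CPM in WT and 7.60 and 10.5 CPM in KO, and macrophage markers to 358 and 437 CPM in WT and 446 and 424 CPM in KO. Their part in the Isg15 level of the liver was not tested. In the heart, lymphocyte markers summed to 32.8 CPM in WT replicate 2 and to between 4.91 and 5.92 CPM in the other 3 libraries.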

How the data were processed

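The authors trimmed reads with cutadapt, mapped them with HISAT2 2.1.0, and counted them on exons with featureCounts 2.0.1 (annotation of GRCm38; versions per the submitters' notes and the file header), and deposited raw counts per gene of GRCm38 with the exon length of each gene (a value other than a measurement) and no normalization. The counting command stored in the table sets no strand or pair option, whereas the study's methods describe strand-specific counting, so reads of overlapping genes on opposite strands may not be told apart. Total counts per sample were 15897446 to 44508197, with a median of 28513950. Groups came from the labels. Levels, log2 fold changes, and adjusted p came from edgeR 4.0.16 under R 4.3.3 (TMM, filterByExpr, robust quasi-likelihood test, each organ separately), as CPM. TPM was computed from counts and exon lengths. The standard error is that of the fit. DESeq2 1.42.0 was an alternative, as were other size factors and filters, no fold threshold, a replicate block, 1 fit of all 20 libraries, the leaving out of each library, and for organ order the KO libraries and reads per kilobase. The length of the principal transcript, the spleen lists without WT replicate 2, and likeness without the small intestine were added after the data were seen. Fits were tested on simulated data, and no result of that step is given here. Python 3.11.15 made tables and figures.

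The 5 genes and all lists were chosen with earlier results of these data known. The rule named the 5 genes, Nsun6, fixed factors, receptors, and ubiquitin counterparts, and, by organ and direction, the 4 interferon-stimulated and 2 interferon gamma genes with the smallest p, called list genes, and the genes most like Isg15 by log2 CPM with a prior count of 2 (8 over all libraries, 5 over WT, minimum mean CPM of 1 in every organ). Not all of them are given values, and some items are not reported here. Usp2, Usp11, Usp15, Usp19, Usp21, Itgal, Itgb2, and Gbp3 were chosen after their values were seen. The labels do not say whether organs came from the same mice, so p-values measure the spread between these samples. In the small intestine, this spread included the difference between segments. Protein sequences were not used here.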

Additional observations from a re-analysis of the deposited data

Results flagged for a closer look

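For Isg15, Herc6, Irf7, and Ifnar1 the KO-to-WT difference had opposite directions in the small intestine and in the organs named here. Both KO libraries lay on one side of both WT libraries in each organ of the pair. Of all genes tested, 11.6% were lower in KO without overlap in the small intestine. Higher without overlap were 17.2% in the liver, 17% in the spleen, and 7.56% in the heart. None of these differences between organs was tested. In Isg15, the log2 fold changes of the small intestine and the liver were 2.22 apart, and those of the small intestine and the spleen 2.38 apart. For Herc6, the small intestine and the liver were 1.78 apart. For Irf7, the small intestine was 0.90 apart from the liver, 0.84 from the spleen, and 0.82 from the heart, and for Ifnar1 the small intestine and the heart were 0.29 apart. The segment of intestine and the lymphocyte markers of KO replicate 1 differed between the libraries of the small intestine, and their part was not tested.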

How the results depend on the processing

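The log2 fold changes of the 5 genes moved by less than the spread between replicates under all 150 values from DESeq2, other size factors, other filters, the fit of all 20 libraries, and the block. With a library left out, 85 values did so too and 15 moved by more. Across those fits, the log2 fold change of Isg15 ranged from 1.11 to 1.12 in the liver, 1.20 to 1.34 in the spleen, -1.84 to -0.55 in the small intestine, -0.80 to 0.57 in the kidney (0.57 without WT replicate 2), and -0.82 to 0.74 in the heart. In the small intestine, leaving out a library also left the segments unequal between the genotypes. The count of called interferon-stimulated genes ranged from 0 to 1 in the spleen (0 without KO replicate 2) and from 0 to 8 in the kidney (8 without WT replicate 1, when 14.3% of all genes were called higher, and 3 without WT replicate 2), and was 0 throughout in the other organs. It was 1 by DESeq2 in the small intestine and 0 in the fit of all 20 libraries in the spleen. In KO libraries, 3 organs kept their rank for Isg15 and 3 for Herc6, because the liver and small intestine changed places; the other genes kept theirs.

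The replicate number as a block left 0, 0, 1, 0, and 0 interferon-stimulated genes called (small intestine, liver, spleen, kidney, heart, in this order) and gave Isg15 log2 fold changes of -1.14, 1.11, 1.27, -0.14, and -0.03. Of all genes, the block called 0%, 0.102%, 0.223%, 0%, and 0% as higher and 0%, 0.0254%, 0.00531%, 0%, and 0.0361% as lower. The labels give same-numbered libraries no shared animal or batch, although in the small intestine they shared a segment by its markers, and the correlation of their deviations was 0.570, 0.038, 0.007, 0.126, and 0.365 in that order. Of the interferon genes, Ifng had enough counts to be tested in the spleen and small intestine, and the others in no organ.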
